A study of Homo sapiens with 35 samples.

Results

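The comparison set 3 arrays of total RNA from cells given PP242 against 3 arrays of total RNA from cells given RAD001, 6 of the 35 arrays in the series, chosen by their labels and not by any measured value. All cells were SUM149, a human line derived from an inflammatory, triple-negative breast cancer. The series has 12 groups: DMSO (the solvent), IR, PP242, RAD001, PP242 + IR and RAD001 + IR, each as polysome RNA, which is the RNA loaded with ribosomes, and as total RNA. Each group has 3 arrays, except PP242 + IR in total RNA, which has 2. The cells compared had the PP242 or the RAD001 label alone, without IR, and the reference arrays quoted beside them were DMSO in total RNA. Doses, times and the meaning of IR are not stated in the labels. They name the arrays biological replicates without saying whether each came from its own culture, so the p-values measure only the spread between arrays, which may be technical. In the main fit this spread is pooled within the 12 groups over all 35 arrays, not taken from the 6 arrays compared. The pool counts polysome and total RNA arrays as independent, though they may share cultures.

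mTOR is a kinase that works in a pair of complexes. The first, mTORC1, drives protein synthesis, ribosome production and cell growth. The second, mTORC2, phosphorylates AKT and SGK, and AKT in turn keeps FOXO transcription factors out of the nucleus. RAD001 (everolimus) is a rapamycin analog that binds FKBP12 (FKBP1A) and acts on the first complex, and leaves some outputs of that complex, such as 4E-BP phosphorylation, partly intact. PP242 competes with ATP at the kinase site and so blocks both complexes. The comparison therefore asks which transcripts differ between cells given an inhibitor of the kinase site and cells given a rapamycin analog. Whether a difference comes from mTOR or from another effect of either compound was not tested.

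The cell line label was checked against markers. All 11 measured epithelial markers, among them EPCAM, CDH1 and KRT8, lay above the median of all genes, and the mean level of the 11 ran from 11.9 to 12.7 on the log2 scale over the 3 PP242 arrays and from 12.1 to 12.4 over the 3 RAD001 arrays. Above that median were 2 of 13 fibroblast markers (FAP and COL1A1), 2 of 14 leukocyte markers (CD68 and TYROBP) and 1 of 12 endothelial markers (ENG). FAP averaged 9.27 with PP242 and 10.03 with RAD001, and its part in the results was not tested. In RNA from whole cultures, fewer cells of a type and less RNA per cell cannot be told apart.

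Some arrays stood apart. PP242 replicate 2 and RAD001 replicate 2 had a narrower range of values than the rest: the standard deviation over probe sets was 2.04 and 2.20, against 2.29 to 2.44 on the other 33 arrays. Replicate 3 of both groups had low levels of DNA replication and G1/S genes and high levels of lipid synthesis genes. For MCM5, a subunit of the replicative helicase, the levels were 6.99 with PP242 and 7.34 with RAD001 in replicate 3, and 9.15 to 10.003 in replicates 1 and 2. FASN, fatty acid synthase, stood at 15.01 and 14.54 in replicate 3 and at 9.999 to 11.89 in replicates 1 and 2. Because both groups hold such an array under the same replicate number, the difference between same-numbered arrays is given below beside the group means.

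A gene was called where the limma fit gave it an adjusted p (Benjamini-Hochberg, over all genes) under 0.05. Of 22384 genes 1 was called, which is 0.00447% of the genes tested. The values are on the log2 scale as deposited. The gene was SKIL, lower with PP242. SKIL encodes SnoN, a nuclear partner of SMAD proteins that holds back TGF-beta signalling and is itself induced by it. Its level was 11.35, 10.40 and 11.25 in PP242 replicates 1 to 3 and 12.15, 12.16 and 12.58 in RAD001 replicates 1 to 3. DMSO gave 12.06, 12.24 and 12.13. All 3 PP242 arrays lay below every RAD001 and DMSO array, while the RAD001 and DMSO arrays overlapped. SKIL fell by 1.30 ± 0.16 on the log2 scale with PP242 relative to RAD001 (2.46-fold, adjusted p = 0.000258; ± after a log2 difference is the standard error of the fit). The means were 10.999 ± 0.52 (SD, n = 3) with PP242 and 12.30 ± 0.24 (SD, n = 3) with RAD001.

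SKIL was called with each of the 6 arrays left out in turn, at differences of -1.4715 to -1.0001. With the replicate number as a block, the SKIL difference was the same but adjusted p was 0.75 in a fit of the 6 arrays, which has 2 residual degrees of freedom, and 0.225 in a fit of 12 arrays that adds the polysome RNA of both inhibitors. Neither blocked limma fit called any gene; 1482 genes (6.62%) and 1243 genes (5.55%) had an unadjusted p under 0.05. The call was also lost without a block when only the 6 arrays (adjusted p = 0.9999) or only the total RNA arrays (0.473) were fitted, and when 8 arrays were left out (-1.28, adjusted p = 0.088): replicate 3 of every inhibitor group and replicate 2 of PP242 + IR in total RNA. Relative to DMSO the SKIL difference was -1.15 with PP242 (adjusted p = 0.00126) and 0.15 with RAD001 (adjusted p = 0.902), both against the same 3 DMSO arrays. Against these arrays PP242 had 28 called genes (0.125%), 24 lower (0.107%) and 4 higher (0.0179%), and RAD001 had none in limma, with 1707 genes (7.63%) at an unadjusted p under 0.05.

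In the main limma fit 1056 of the 22384 genes had an unadjusted p under 0.05 (4.72%), 575 of them higher with PP242 (2.57%) and 481 lower (2.15%). In this fit the share is no larger than the threshold would give if no gene differed. The number of such genes depended on the setting. It was 186 with only the 6 arrays fitted, 1575 after quantile normalization and 2881 without RAD001 replicate 2. The balance turned with the replicate block: of the 1482 genes in the fit of 6 arrays, 573 were higher and 909 lower. The groups did not overlap for 370 genes higher with PP242 (1.65%) and for 365 genes lower (1.63%). In same-numbered arrays, 16.9% of genes were higher with PP242 in all 3 pairs and 13.1% were lower in all 3. The difference was above 0 for 56% of genes, and its median over all genes was 0.03. All genes named below other than SKIL failed the adjusted threshold in this comparison, and they are given by their values.

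SKIL, called in total RNA, and PMEPA1, called with it in polysome RNA below, are both known targets of SMAD factors, so their promoters are shown. The sequences are RefSeq's (GRCh38.p14), 250 bases before to 50 after the annotated start, 5′ to 3′ on the gene's strand. Capitals mark a GC-rich SMAD element (GGCGCC) or a cAMP response element (TGACGTCA). Both strands were searched, also for the SMAD box CAGACA, the E-box CACGTG and the FOXO element GTAAACA. The SKIL window, chr3:170357465-170357764, plus strand, holds a GGCGCC at position -190 and a TGACGTCA at position -54, counted from the start to the first base of the motif. PMEPA1 has 4 annotated starts. The window at chr20:57711423-57711722, minus strand, holds GGCGCC at -207, and the one at chr20:57709966-57710265, minus strand, holds TGACGTCA at -4. A further PMEPA1 window holds CAGACA at -115 and the last holds none of the 5 motifs.
SKIL: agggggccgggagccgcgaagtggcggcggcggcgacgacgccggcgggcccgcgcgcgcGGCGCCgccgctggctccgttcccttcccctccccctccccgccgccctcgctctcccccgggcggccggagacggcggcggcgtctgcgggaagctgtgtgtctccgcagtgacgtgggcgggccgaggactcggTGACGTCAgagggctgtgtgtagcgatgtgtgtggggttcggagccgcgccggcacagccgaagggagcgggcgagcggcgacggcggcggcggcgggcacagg
PMEPA1, window with GGCGCC: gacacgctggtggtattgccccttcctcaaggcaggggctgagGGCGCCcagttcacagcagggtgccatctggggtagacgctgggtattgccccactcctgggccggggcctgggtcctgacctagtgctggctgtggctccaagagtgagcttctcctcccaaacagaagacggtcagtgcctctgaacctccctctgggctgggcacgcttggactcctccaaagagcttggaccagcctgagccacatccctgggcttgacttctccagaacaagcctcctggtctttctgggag
PMEPA1, window with TGACGTCA: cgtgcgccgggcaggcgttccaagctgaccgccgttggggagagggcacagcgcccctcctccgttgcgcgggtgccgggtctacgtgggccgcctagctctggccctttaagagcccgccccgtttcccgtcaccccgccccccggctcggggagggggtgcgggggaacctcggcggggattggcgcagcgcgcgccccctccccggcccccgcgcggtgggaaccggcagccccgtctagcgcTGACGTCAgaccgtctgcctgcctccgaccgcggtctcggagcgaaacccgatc
Of 35116 promoter windows of the same length, 19.2% hold GGCGCC, 16.9% CAGACA, 1.85% TGACGTCA, 7.26% CACGTG and 3.42% GTAAACA. The windows of ID1, ID2, ID3, SMAD6, SMAD7, FST and LIPG hold none of the 5, and that of PIM3 holds GGCGCC at 2 positions. Only these exact letters were searched. A window without a match, such as that of SMAD6 with GTCTAGAC, can hold other or shorter forms of SMAD sites. A match describes the letters of a window and is not a site at which a factor was measured.

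The genes around SKIL in the TGF-beta and BMP pathway were read as a group. In that pathway a ligand binds paired receptor kinases, which phosphorylate SMAD proteins. SMAD1, SMAD5 and SMAD9 carry the BMP branch, SMAD2 and SMAD3 the TGF-beta branch, and the ID genes, SMAD6, SMAD7, SKIL and PMEPA1 are induced and in part feed back on the signal. Of 35 measured genes on this list, 24 had a difference below 0 and 15 were lower with PP242 in all 3 pairs (42.9%, against 13.1% of all genes). The median was -0.18, against 0.03 over all genes. After quantile normalization the median was -0.10, and it was -0.08 without PP242 replicate 2, -0.31 without PP242 replicate 1 and -0.28 without PP242 replicate 3. An unadjusted p under 0.05 was found for 11 of the 35 genes lower and 1 higher, against 2.15% lower and 2.57% higher among all genes. Medians by pair were -0.11, -0.31 and -0.19 for replicates 1, 2 and 3. This list, like the PIM and FOXO lists below, was drawn up with earlier results of these arrays known, so its direction is not independent evidence.

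**Figure D1:**
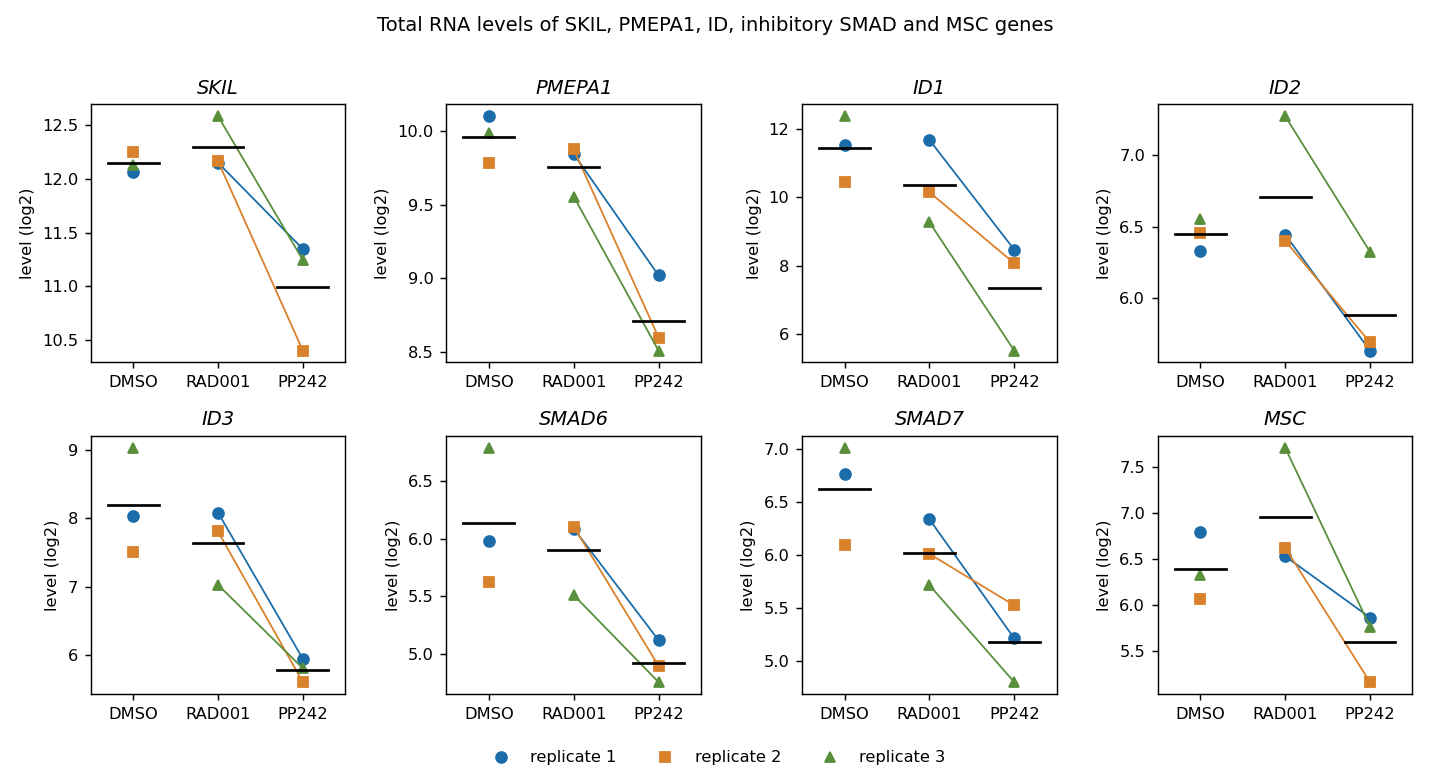
Total RNA level (log2) on each DMSO, RAD001 and PP242 array for 8 genes; symbols are replicate numbers, lines join same-numbered RAD001 and PP242 arrays, and black bars are group means (n = 3). In each of the 8 panels all 3 PP242 arrays lie below all 3 RAD001 arrays, with SKIL at 10.40 to 11.35 against 12.15 to 12.58. Of all genes, 1.63% were lower with PP242 without overlap. The 8 genes were chosen with earlier results of these data known, so their separation is not separate evidence.

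Among the targets, PMEPA1, which encodes a membrane protein that sequesters TGF-beta SMADs, had levels of 9.02, 8.60 and 8.51 with PP242 and 9.84, 9.88 and 9.56 with RAD001. The 3 DMSO arrays gave 10.10, 9.78 and 9.99, so that the PP242 arrays lay below both other groups. The difference between inhibitors was -1.05 ± 0.21 (adjusted p = 0.242). Against the shared DMSO arrays PMEPA1 was at -1.25 with PP242 (adjusted p = 0.00844) and -0.20 with RAD001.

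The ID genes encode helix-loop-helix proteins that lack a DNA-binding region and so block other factors of that family. ID1 had the most negative difference on the list, with PP242 arrays at 8.47, 8.07 and 5.51 and RAD001 arrays at 11.69, 10.15 and 9.27. DMSO arrays were at 11.55, 10.46 and 12.38. The groups given inhibitors did not overlap, but each spanned more than 2 log2 units, with replicate 3 the lowest in both. ID1 differed by -3.02 ± 0.93 (8.13-fold, adjusted p = 0.765), and by -3.22, -2.08 and -3.76 in the 3 pairs. ID3 was at 5.94, 5.60 and 5.80 with PP242 and at 8.08, 7.81 and 7.03 with RAD001. Its PP242 arrays lay close together and below all RAD001 and DMSO arrays, and the difference was -1.86 ± 0.40 (adjusted p = 0.438). ID2 stood at 5.63, 5.69 and 6.33 against 6.45, 6.40 and 7.27, a difference of -0.82 ± 0.34 that was between -0.95 and -0.71 in the 3 pairs. For ID4 the difference was -0.61 ± 0.19, from -1.10 in pair 1 to -0.04 in pair 2.

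SMAD6 and SMAD7, the inhibitory SMADs, did not overlap between the groups either. SMAD6 levels were 5.12, 4.89 and 4.75 with PP242 and 6.09, 6.10 and 5.51 with RAD001, a difference of -0.98 ± 0.29 (adjusted p = 0.744). SMAD7 levels were 5.21, 5.52 and 4.798 against 6.34, 6.01 and 5.71, a difference of -0.84 ± 0.27 (adjusted p = 0.775). As with SKIL, every PP242 array was below every RAD001 and DMSO array for both genes. MSC (musculin), a helix-loop-helix repressor outside this list, was at 5.86, 5.16 and 5.76 with PP242 and 6.53, 6.62 and 7.71 with RAD001, a difference of -1.36 ± 0.35.

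The receptors and signal carriers had smaller differences. SMAD5 was at -0.50 ± 0.17, SMAD1 at -0.29 ± 0.16 and SMAD4, the shared partner, at -0.30 ± 0.14. BMPR2, a BMP receptor, was at -0.47 ± 0.22, while ACVR1, another, was at 0.19 ± 0.11 and TGFBR1 at 0.11 ± 0.22. SMURF2, a ubiquitin ligase that removes SMADs and receptors, was at -0.82 ± 0.42, with pair values from -1.45 to -0.46. The ligands TGFB1, TGFB2 and BMP4 were between -0.27 and -0.12, and BMP2 was at 0.53 ± 0.49. FST, which encodes follistatin, a secreted trap for activins and some BMPs, was the exception in sign among the larger differences, at 9.58, 7.59 and 10.43 with PP242 and 7.01, 7.04 and 8.71 with RAD001. It differed by 1.61 ± 0.72, and its pair values ran from 0.54 to 2.58.

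Outside this pathway, the protein-coding genes of lowest p on the lower side came from different functions. AMIGO2, a cell adhesion protein, was at 10.26, 9.10 and 9.13 with PP242 and at 11.60, 10.87 and 10.74 with RAD001, a difference of -1.57 ± 0.38 (adjusted p = 0.475) with pair values of -1.78 to -1.33. FOXI1, a forkhead factor, was at -1.16 ± 0.29, ETV6, an ETS-family repressor, at -0.72 ± 0.18 and ZNF532, a zinc finger protein, at -0.63 ± 0.14. MRPS11, a protein of the small mitochondrial ribosomal subunit, was at 8.14, 7.49 and 7.81 against 8.91, 8.30 and 8.42, a difference of -0.73 ± 0.17 (adjusted p = 0.438). None of these 5 genes overlapped between the groups, as did 1.63% of all genes on the lower side. They were picked by p on the same arrays, so this is not separate evidence. With PP242 replicate 3 left out, 7 genes were called, SKIL and ZNF532 (-0.79, adjusted p = 0.0397) among them. Without PP242 replicate 1 the count was 3, and without RAD001 replicate 2 it was 2.

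On the higher side, the 8 protein-coding genes of lowest p were HDAC9, OR1E1, PACC1, ELP3, ZFAND2A, LIPG, PIM3 and TINAGL1. None overlapped between the groups, which held for 1.65% of all genes on the higher side. These genes too were picked by p on the same arrays, so this is not separate evidence. HDAC9, a class II histone deacetylase, had the lowest p of the 8, at 5.30, 5.55 and 5.38 with PP242 and 4.83, 5.08 and 5.00 with RAD001. Its difference was 0.44 ± 0.09 (adjusted p = 0.242), and after quantile normalization between arrays it was 0.47 with adjusted p = 0.0407. LIPG, endothelial lipase, a secreted phospholipase, was at 10.97, 9.41 and 10.76 with PP242 and at 8.85, 8.42 and 9.29 with RAD001. DMSO arrays were at 9.59, 8.59 and 8.63, and the lowest PP242 array lay below the highest DMSO array. The LIPG difference was 1.53 ± 0.38 (2.88-fold, adjusted p = 0.475). ZFAND2A, a heat shock-induced proteasome adaptor, was at 0.67 ± 0.16, ELP3, the catalytic subunit of the Elongator complex, at 0.46 ± 0.11, PACC1, an acid-sensing chloride channel, at 0.46 ± 0.11 and TINAGL1, a secreted matrix protein, at 0.83 ± 0.21. OR1E1, an olfactory receptor gene, had levels of 3.64 to 4.74 over the 6 arrays, and its difference of 0.65 ± 0.15 was largest, 0.88, in pair 2.

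**Figure D2:**
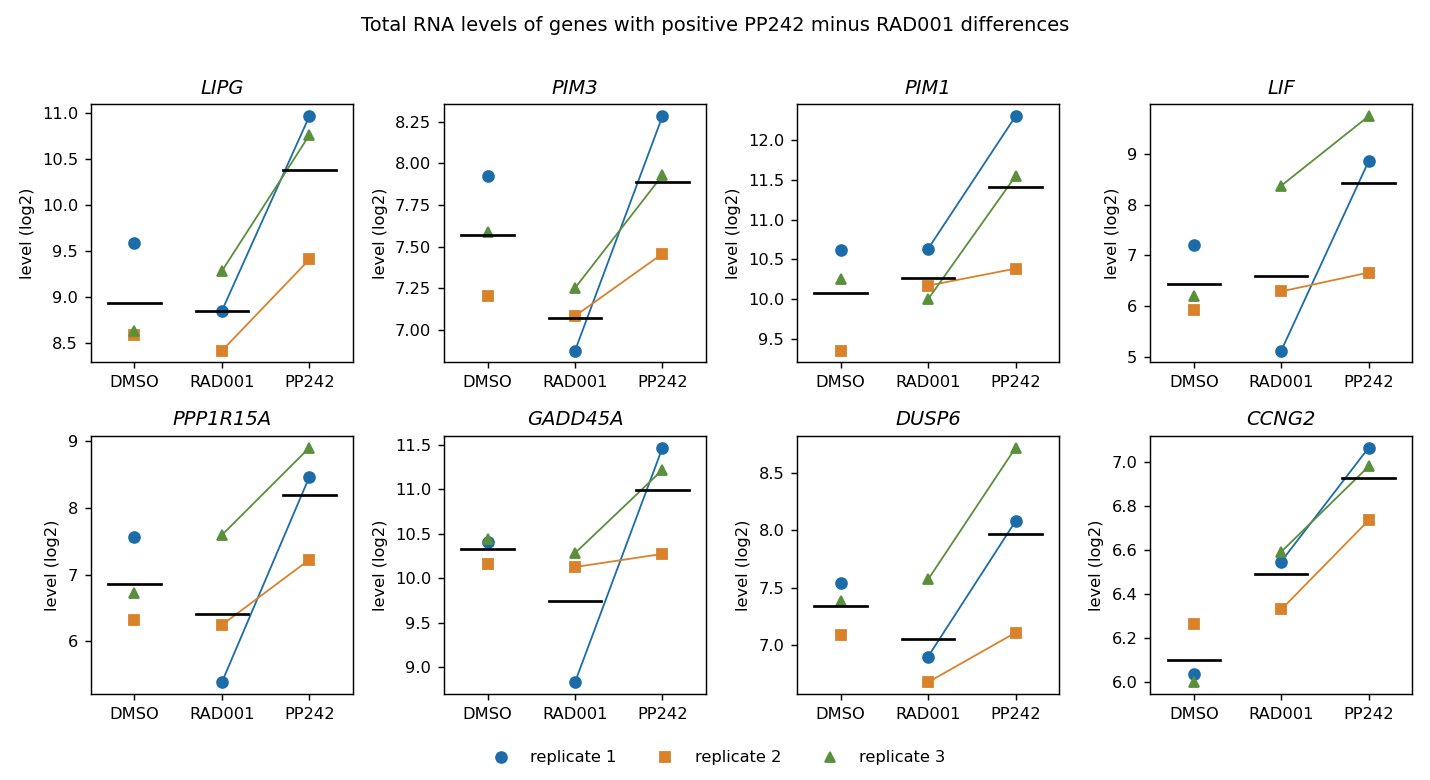
Total RNA level (log2) on each DMSO, RAD001 and PP242 array for 8 genes; symbols are replicate numbers, lines join same-numbered RAD001 and PP242 arrays, and black bars are group means (n = 3). Each line is higher at its PP242 end and pair 2 has the smallest step for 7 of the 8 genes. LIF spans 5.13 to 8.37 with RAD001 and 6.67 to 9.73 with PP242. Of all genes, 16.9% were higher with PP242 in all 3 pairs. The 8 genes were chosen for positive differences or with earlier results known, so their direction is not separate evidence.

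PIM kinases are serine/threonine kinases that act on many of the same substrates as AKT and are controlled mainly by their amount, which cytokine receptors raise through JAK and STAT proteins. LIF is a cytokine of the interleukin 6 family that signals in this way. Of 19 measured genes of this group 15 had a difference above 0 and 6 were higher with PP242 in all 3 pairs (31.6%, against 16.9% of all genes), with a median of 0.15. An unadjusted p under 0.05 was found for 5 of the 19, all higher, against 2.57% higher among all genes. Without PP242 replicate 3 the median was 0.01 and without RAD001 replicate 1 it was 0.03. PIM3 was at 8.28, 7.46 and 7.93 with PP242 and 6.87, 7.08 and 7.25 with RAD001, so the groups did not overlap. The difference was 0.82 ± 0.20 (1.77-fold, adjusted p = 0.478). PIM3 on DMSO arrays was at 7.92, 7.20 and 7.59, a mean from which PP242 differed by 0.32 and RAD001 by -0.50. PIM1 was at 12.31, 10.38 and 11.55 against 10.63, 10.17 and 9.999, a difference of 1.15 ± 0.37 (adjusted p = 0.807) in which PP242 replicate 2 lay below RAD001 replicate 1. PIM2 was at 0.06. LIF was at 8.85, 6.67 and 9.73 with PP242 and 5.13, 6.29 and 8.37 with RAD001, and the groups overlapped. Its difference was 1.82 ± 0.76, with 3.72 in pair 1, 0.37 in pair 2 and 1.36 in pair 3. JAK2 was at 0.31 ± 0.15, STAT5A at 0.19 ± 0.08 and IL6R at 0.66 ± 0.44, while STAT3 and JAK1 were both at -0.11.

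FOXO factors are held in the cytoplasm by AKT, and genes they induce include brakes on the cell cycle. Of 31 measured genes of this group 22 had a difference above 0, and 14 were higher with PP242 in all 3 pairs (45.2%, against 16.9% of all genes), with a median of 0.12 and pair medians of 0.25, 0.11 and 0.10. Without PP242 replicate 3 the FOXO median was 0.03 and without RAD001 replicate 1 it was 0.06. CCNG2, an atypical cyclin linked to cell cycle arrest, was at 7.07, 6.74 and 6.98 with PP242, at 6.55, 6.33 and 6.59 with RAD001 and at 6.03, 6.26 and 5.998 with DMSO. The 3 groups were separate and in that order. The difference between inhibitors was 0.44 ± 0.13 (adjusted p = 0.744) and was within 0.39 to 0.52 in the 3 pairs; relative to DMSO it was 0.83 with PP242 (adjusted p = 0.00364) and 0.39 with RAD001. HBP1, a repressor of cell cycle genes, was at 1.37 with PP242 (adjusted p = 0.019) and 1.06 with RAD001 relative to DMSO, and at 0.31 ± 0.25 between the inhibitors. GADD45A, a stress-induced protein with p53 and FOXO inputs, was at 11.47, 10.27 and 11.22 against 8.83, 10.13 and 10.28, a difference of 1.24 ± 0.36 of which 2.64 came in pair 1 and 0.15 in pair 2. KLF6, a tumour-suppressing zinc finger factor, was at 1.22 ± 0.61, FOXO3 at 0.48 ± 0.33 and TXNIP, a glucose uptake brake, at 0.96 ± 0.80 with pair values between 0.83 and 1.20. FOXO1, FOXO4 and FOXO6 were between -0.07 and 0.15. KLHL24 and INSR were at 0.05 ± 0.27 and 0.05 ± 0.21, and IRS2 at -0.16 ± 0.48.

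Receptor tyrosine kinases and their adaptors, which AKT and S6 kinase restrain in many cells, had a median of 0.09, with 20 of 24 above 0 and 10 higher in all 3 pairs (41.7%, against 16.9% of all genes). EPHA2, a receptor for ephrins, was at 12.33, 10.998 and 12.24 with PP242 and 10.31, 10.75 and 11.69 with RAD001, a difference of 0.94 ± 0.35. GAB2, a docking protein for PI3 kinase, did not overlap between the groups and was at 0.36 ± 0.15. MET was at 0.34, EGFR at 0.00, ERBB3 at -0.13 ± 0.17 and IGF1R at -0.59 ± 0.27.

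The components of the mTOR, PI3K and AKT pathway itself had a median of -0.07 over 36 measured genes, 26 of them below 0, and of 0.09 without PP242 replicate 2. MTOR was at -0.08 ± 0.26, RPTOR, which defines the first complex, at -0.05 ± 0.24 and RICTOR, which defines the second, at 0.09 ± 0.21. MLST8, a subunit of both, was at -0.31 ± 0.17, and FKBP1A, the protein RAD001 binds, at -0.20 ± 0.21. RRAGC, a GTPase that brings the first complex to lysosomes when amino acids are present, was the pathway gene of lowest p, at 9.88, 9.34 and 9.62 with PP242 and 9.06, 9.15 and 9.13 with RAD001. The groups did not overlap and the difference was 0.50 ± 0.14 (adjusted p = 0.744). PDPK1, the kinase that activates AKT, did not overlap either and was at 0.23 ± 0.09. EIF4EBP1 and EIF4EBP2, repressors of cap-dependent translation, were at -0.20 ± 0.18 and -0.55 ± 0.34.

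The genes of the integrated stress response and of amino acid supply, many of them ATF4 targets, had a median of 0.06 with 21 of 37 above 0, and of -0.15 without PP242 replicate 3. PPP1R15A (GADD34), which restores translation by removing the phosphate from eIF2, was at 8.46, 7.22 and 8.90 with PP242 and 5.39, 6.25 and 7.59 with RAD001, a difference of 1.79 ± 0.62 with 3.07 in pair 1, 0.98 in pair 2 and 1.31 in pair 3. ATF4 itself was at 12.94, 11.64 and 13.24 against 12.19, 11.85 and 12.06, a difference of 0.58 ± 0.26 that was -0.21 in pair 2. The enzymes PSAT1, PHGDH and ASNS of serine and asparagine synthesis were between -0.15 and -0.07, and GARS1, a tRNA synthetase, was at -0.41 ± 0.19.

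Immediate early genes and genes that feed back on ERK signalling, induced within a short time by growth factors, had a median of 0.22 with 33 of 39 above 0 and 12 higher in all 3 pairs (30.8%, against 16.9% of all genes). The pairs differed: the median was 0.80 in pair 1, -0.09 in pair 2 and 0.25 in pair 3. It was 0.00 without PP242 replicate 3, 0.05 without RAD001 replicate 1 and 0.64 without PP242 replicate 2. DUSP6, a phosphatase that turns off ERK, was at 8.08, 7.11 and 8.72 with PP242 and 6.90, 6.68 and 7.57 with RAD001, a difference of 0.92 ± 0.32. IER5 was at 0.79 ± 0.24 with no overlap, PHLDA1 at 0.75 ± 0.29, SPRY2, another brake on ERK, at 0.77 ± 0.46, and MYC at 0.66 ± 0.46 with 1.50 in pair 1 and 0.01 in pair 2. FOS and JUN were at 0.16 ± 0.33 and 0.10 ± 0.84. In the NF-kB and inflammatory group 23 of 31 genes were above 0 with a median of 0.22, but the pair medians were 0.66, -0.02 and -0.01, and only that of pair 1 was away from 0. IL1B, an inflammatory cytokine, was at 1.05 ± 0.57 with pair values of 2.39, 0.94 and -0.19, and IRAK2, a kinase below its receptor, was at 0.46 ± 0.19 with 0.34 to 0.66 in the pairs.

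**Figure D3:**
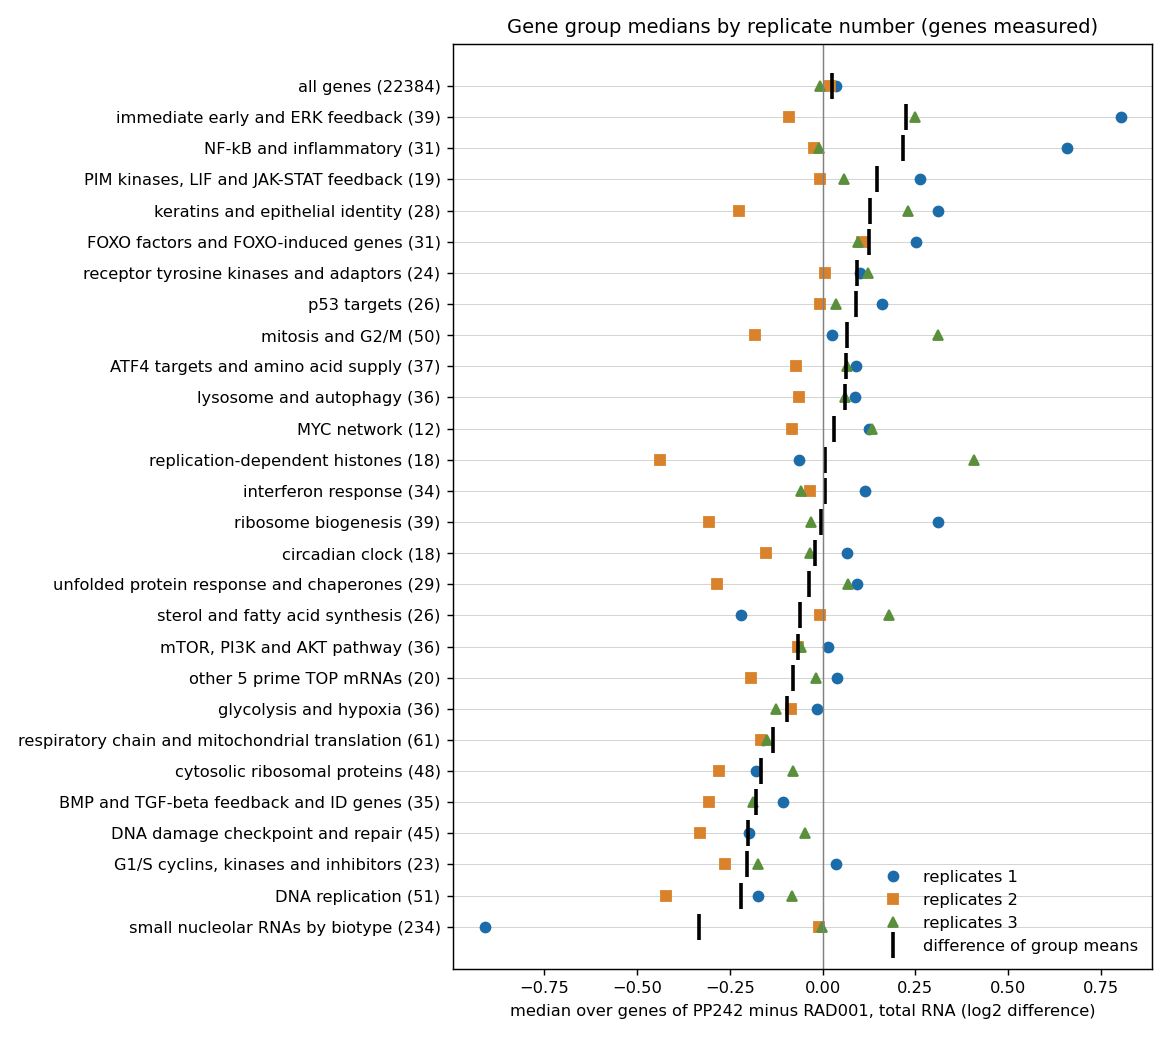
Median PP242 minus RAD001 difference in total RNA (log2) over the measured genes of each gene group, for each pair of same-numbered arrays (symbols) and for the difference of group means (black bars), with all 22384 genes in the top row. Pair 1 stands apart for the immediate early (0.80), NF-kB (0.66) and small nucleolar RNA (-0.91) groups.

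Ribosomal proteins and ribosome assembly factors are known outputs of the first complex, on which both inhibitors act. Cytosolic ribosomal proteins had a median of -0.17, with 44 of 48 below 0 and 23 lower in all 3 pairs (47.9%, against 13.1% of all genes). No ribosomal protein gene had an unadjusted p under 0.05, and after quantile normalization the median was -0.07. RPL29 was at -0.54 ± 0.27 and RPS7 at -0.21 ± 0.12. Ribosome biogenesis genes had a median of -0.00 with 20 of 39 below 0 (0.11 after quantile normalization), and relative to the shared DMSO arrays their medians were -0.30 with PP242 and -0.33 with RAD001. MRTO4, an assembly factor of the large subunit, was at -0.88 with PP242 (adjusted p = 0.0109) and -0.90 with RAD001 relative to DMSO, and at 0.02 ± 0.15 between inhibitors. Respiratory chain and mitochondrial translation genes had a median of -0.13 with 49 of 61 below 0 and 24 lower in all 3 pairs (39.3%). Without PP242 replicate 2 the ribosomal protein median was 0.02 and the respiratory median 0.01, and after quantile normalization the respiratory median was -0.03. TACO1, a translation activator for a respiratory subunit, was at -0.53 ± 0.19, and NDUFA9, a subunit of respiratory complex I, at -0.70 ± 0.30.

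These lists hold highly expressed genes, and the difference between the inhibitors moved with level. With genes in 10 equal groups by mean level over the 35 arrays, the median difference in pair 2 went from 0.17 in the lowest group to -0.32 in the highest. In pair 1 it went from 0.03 to 0.11 and in pair 3 from 0.00 to -0.06. Pair 2 is made of the 2 arrays of narrow range. With both arrays left out, a choice made after seeing the data, the ribosomal protein median was -0.14, the respiratory median -0.17, the FOXO median 0.13, the PIM and LIF median 0.25 and the TGF-beta and BMP median -0.07; SKIL was still called, at -1.07 (adjusted p = 0.000284). The part that array range plays in these medians was not tested.

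**Figure D4:**
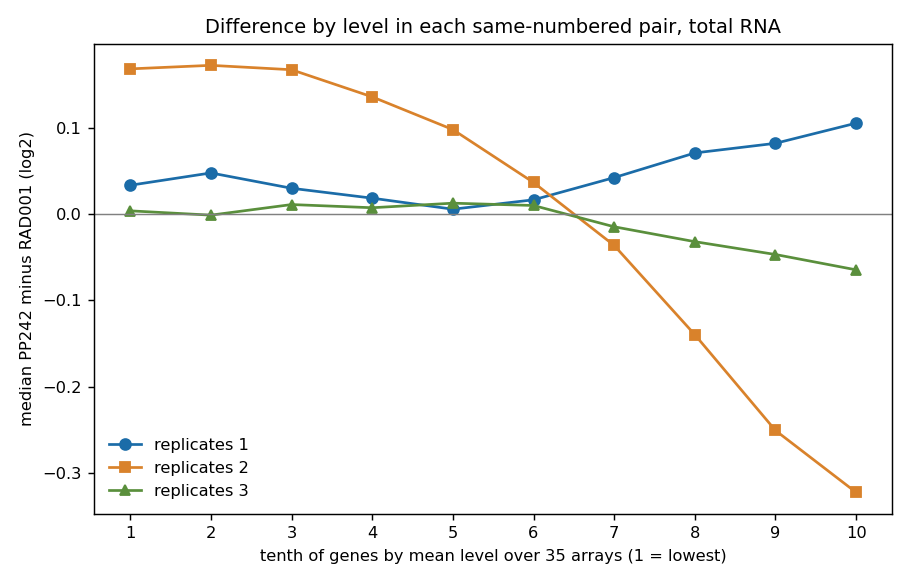
Median PP242 minus RAD001 difference in total RNA (log2) for genes in 10 equal groups by mean level, 1 line per pair of same-numbered arrays. The line of replicates 2 runs from 0.17 to -0.32; the other 2 lines stay between -0.06 and 0.11.

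In the cell cycle, genes of DNA replication had a median of -0.22 with 40 of 51 below 0 and 15 lower in all 3 pairs (29.4%, against 13.1% of all genes). MCM10, which loads polymerase at origins, was at 9.61, 8.32 and 7.15 with PP242 and 10.37, 9.91 and 7.86 with RAD001, a difference of -1.02 ± 0.91 that was -1.59 to -0.71 in the pairs. CDC6, a loader of the helicase, was at -0.75 and MCM5 at -0.17 ± 1.00. Checkpoint and repair genes had a median of -0.20 with 36 of 45 below 0 (-0.01 without RAD001 replicate 1 and -0.05 without PP242 replicate 2), and G1/S regulators a median of -0.20 with 15 of 23 below 0. E2F3, a driver of S phase, was at -0.63 ± 0.27 but at -0.01 in pair 1. PPM1D, a phosphatase that ends p53 signalling, did not overlap between the groups and was at -0.60 ± 0.19. CCND1 (cyclin D1) was at -0.41 ± 0.34. Mitotic genes had a median of 0.06, with 34 of 50 above 0 and pair medians of 0.03, -0.18 and 0.31. Leaving out 1 array, which leaves its same-numbered array without a partner, turned the signs for replication, G1/S and mitosis. The replication median was then 0.07 without PP242 replicate 3 and 0.14 without RAD001 replicate 1. The G1/S median was 0.07 and 0.05 without the same arrays, and the mitotic median -0.23 without PP242 replicate 1 or RAD001 replicate 3. With pairs kept whole, the replication medians were -0.17, -0.42 and -0.08 in pairs 1, 2 and 3, and -0.11 without both arrays of pair 2. The G1/S pair medians were 0.04, -0.26 and -0.17. UBE2C, the ubiquitin-conjugating enzyme of the anaphase complex, was at 0.41 ± 0.22 and CENPE, a kinetochore motor, at 0.46 ± 0.37. Relative to DMSO the replication list had medians of -0.93 with PP242 and -0.73 with RAD001, in which replicate 3 of both groups is the lowest array, at 8.24 and 8.43 against 9.13 to 10.09 for the median level on the other 4.

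The remaining groups had medians between -0.10 and 0.13. Medians were 0.09 for p53 targets, 0.06 for lysosome and autophagy, 0.03 for the MYC network, 0.01 for replication-dependent histones and for interferon response, -0.02 for clock genes, -0.04 for the unfolded protein response, -0.06 for sterol and fatty acid synthesis, -0.08 for other TOP mRNAs (whose 5′ ends carry a pyrimidine tract that ties their translation to mTOR) and -0.10 for glycolysis and hypoxia. The glycolysis and hypoxia list had 12 of 36 genes lower in all 3 pairs (33.3%, against 13.1% of all genes), and its median was 0.03 without RAD001 replicate 1 and -0.01 after quantile normalization. The histone median joined pair medians of -0.06, -0.44 and 0.41, and ran from -0.45 without RAD001 replicate 3 to 0.25 without PP242 replicate 3. For sterol and fatty acid synthesis the pair medians were -0.22, -0.01 and 0.18, and the median ran from -0.35 without PP242 replicate 3 to 0.23 without PP242 replicate 2 or RAD001 replicate 3. Quantile normalization turned the sign for the unfolded protein response (0.04), sterol (0.04), TOP (0.06) and interferon (-0.01) groups. Keratins and epithelial identity genes had a median of 0.13 with 18 of 28 above 0, and of -0.03 without PP242 replicate 1. ERN1 (IRE1), a sensor of unfolded protein in the endoplasmic reticulum, was at 0.64 ± 0.21, HIF1A at -0.41 ± 0.17 and ATG2A, a lipid transfer protein of autophagy, at 0.30 ± 0.10 with no overlap.

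Polysome RNA of the same treatments, on other arrays that may share cultures with the total RNA, gave 6 called genes (0.0268%), 5 of them lower with PP242 (0.0223%). SKIL was at 10.58, 10.71 and 10.82 with PP242 and at 12.09, 11.82 and 12.03 with RAD001, and it fell by 1.27 ± 0.16 on the log2 scale (adjusted p = 0.000358). PMEPA1 was at 9.17, 9.20 and 8.84 against 10.54, 10.42 and 9.90, a difference of -1.22 ± 0.21 (adjusted p = 0.0297). Also called were MSC at -1.92, ID4 at -1.03 and EIF2S3, a subunit of the initiation factor eIF2, at -0.83, all lower with PP242 (adjusted p = 0.0422 for each), and RASSF1, a RAS-association tumour suppressor, at 0.46 (adjusted p = 0.0297). With the replicate block the calls were ID3, PMEPA1 and SMAD7 in the fit of 12 arrays and ID3 and LIPG in the fit of the 6 polysome arrays. SKIL was called with each of the 6 polysome arrays left out in turn and was the only call without PP242 replicate 2, RAD001 replicate 1 or RAD001 replicate 2. PMEPA1 was called again only without RAD001 replicate 3, and MSC in none of the 6 fits. EIF2S3 was at -0.10 ± 0.15 in total RNA, with PP242 at 14.61, 13.81 and 14.26 and RAD001 at 14.54, 14.06 and 14.36.

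Total RNA of cells with the IR label, PP242 + IR on 2 arrays against RAD001 + IR on 3, gave no called gene in limma and 648 genes at an unadjusted p under 0.05 (2.89%). SKIL was at 11.57 and 11.41 with PP242 and 12.31, 12.56 and 12.55 with RAD001, which do not overlap, and the difference was -0.99 ± 0.18 (adjusted p = 0.167). PMEPA1 was at -1.05 ± 0.23, ID3 at -2.05 ± 0.45, ID1 at -2.96 ± 1.04 and LIPG at 1.72 ± 0.42. ZNF165, with the second lowest p after SKIL, was at 0.73 ± 0.14.

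Whether the difference between inhibitors itself differed by RNA fraction or with IR was tested by interaction terms. No gene was called for either in limma; 300 and 288 genes had an unadjusted p under 0.05 (1.34% and 1.29%). The total difference minus the polysome difference was -0.02 ± 0.22 for SKIL and 0.17 ± 0.30 for PMEPA1. For MRPS11 it was -0.70 ± 0.23, since the polysome difference was -0.03 ± 0.17, and for EIF2S3 it was 0.74 ± 0.21. FBXO4, a ubiquitin ligase subunit, had the lowest p of this interaction, at 0.29 ± 0.09 in total and -0.21 ± 0.09 in polysome RNA. Lowest in p for IR were OR2B11, at 0.41 ± 0.16 without IR and -0.37 ± 0.18 with it, and TEKTIP1, at 0.31 ± 0.15 and -0.41 ± 0.17; both had their high PP242 value, 4.75 and 4.81, on the narrow-range array, replicate 2, and 3.80 to 3.97 on the other PP242 arrays.

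**Figure D5:**
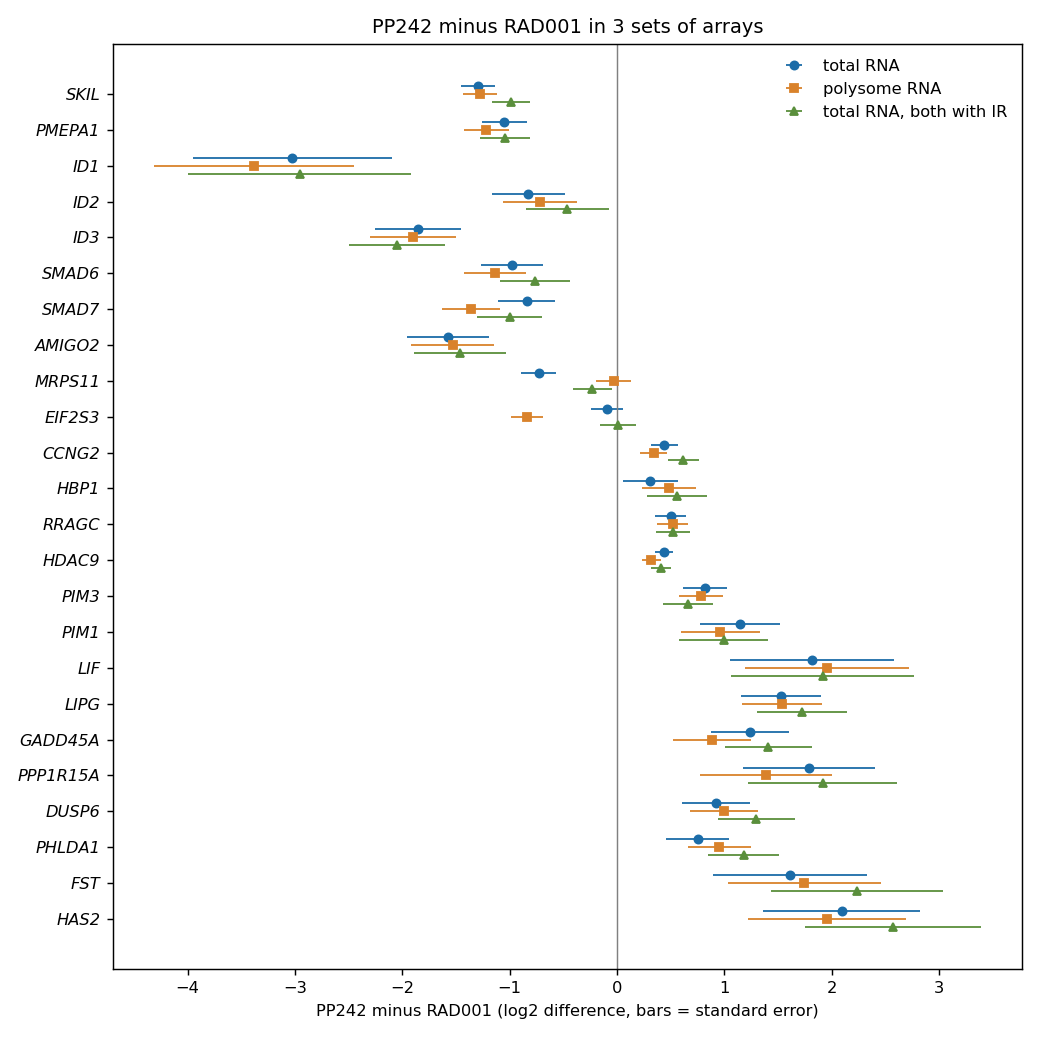
PP242 minus RAD001 difference (log2) with its standard error for 24 genes in total RNA (3 arrays against 3), polysome RNA (3 against 3) and total RNA with IR in both groups (2 against 3). SKIL, PMEPA1, ID1, ID3, SMAD6, SMAD7 and AMIGO2 lie on the same side of 0 in all 3 sets, while MRPS11 and EIF2S3 differ in one fraction by -0.73 and -0.83 and are near 0 in the other.

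Over all 17068 protein-coding genes, the sign of the total RNA difference matched that in polysome RNA for 63.5% and that with IR for 64.2%. Among the 662 protein-coding genes with an unadjusted p under 0.05 in total RNA, it matched for 82.8% in polysome RNA and 82.8% with IR. With genes of every type counted, the shares were lower. They were 60.7% and 62.3% over all 22384 genes, and 72.1% and 76.4% over the 1056 genes under that threshold. The DNA replication median was -0.21 in polysome RNA and -0.41 with IR, the mitotic median 0.33 and 0.31, the FOXO median 0.09 and 0.23 and the immediate early median 0.22 and 0.47. The TGF-beta and BMP list had medians of -0.19 in polysome RNA and -0.03 with IR. The ribosomal protein median was -0.28 in polysome RNA, with 45 of 48 below 0, and 0.01 with IR, with 23 of 48 below 0. Of the 10 groups by level, the highest had polysome medians of -0.13, -0.09 and -0.04 in pairs 1, 2 and 3, and 0.03 with IR. The lowest group had 0.02, 0.01 and 0.00, and 0.01 with IR. The part that level plays in the ribosomal protein medians was not tested.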

How the data were processed

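RNA from SUM149 cells was hybridised to 1-colour arrays, and the values used are the log2 values that the authors deposited in the series' table; how they were background-corrected and normalized is not stated in the labels. The labels' growth and extraction protocols describe mouse forelimbs, not a human line, and nothing was taken from them. The deposited table holds 65029 probe sets. Of these, 23077 have 1 gene symbol, 1357 have several and 40595 are unnamed here, per GEO's platform annotation updated through RefSeq. For each of 22384 symbols the probe set of highest mean over the 35 arrays was kept, and levels of different probe sets were not compared. The number of arrays, not a read depth, limits precision.

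One limma model (version 3.58.1, R 4.3.3) with 12 group means was fitted to all 35 arrays (23 residual degrees of freedom), and calls needed a Benjamini-Hochberg adjusted p under 0.05 over all genes. Replicate numbers come from the titles. Over 22384 genes, deviations from the group means of same-numbered PP242 and RAD001 arrays correlated at 0.47, 0.69 and 0.71, and those of other pairs at -0.54 to -0.15. Deviations cancel within a group, so the negative values follow from the positive ones and are not separate evidence. From the same-numbered values the numbers were taken to pair the arrays, and a fit with the replicate block is given where it changes a call. Named genes were the 8 protein-coding genes of lowest p in each direction, up to 3 of lowest p per gene list, genes known from earlier results and, in the other comparisons, up to 3 called or 2 of lowest p. Members, lists and tests were chosen with earlier results of these data known. The alternatives were other normalizations, filters, probe set rules, array weights, fewer arrays and single arrays left out. The scripts were tested on simulated data.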

Additional observations from a re-analysis of the deposited data

How the results depend on the processing

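The number of genes called for PP242 against RAD001 in total RNA was 1, and it was 2 after quantile normalization, 0 with only the arrays compared (186 genes at an unadjusted p under 0.05 in limma), 0 with only total RNA arrays (470), 0 with 8 arrays left out (1537) and 37 (7 higher, 30 lower) by the rule of the series' design text (unadjusted p under 0.05 and a log2 difference over 1.5). Of the 30 lower by this rule, only AMIGO2, ID1 and ID3 are protein-coding. The rest are by name small non-coding RNAs or pseudogenes, with RNA5SP243 (-4.27), RNA5SP149 (-2.91) and SNORD105B (-2.74) among them. RAD001 replicate 1 stood apart for small nucleolar RNAs, as given below, and its part in this count was not tested. With the replicate block the total RNA count was 0 in the fits of 6 and of 12 arrays, and the polysome count of 6 became 2 and 3. The paired fits changed no other count by more than 1.5 times. The polysome count was 2 with arrays centred on their medians, 1 over all probe sets, 240 with array weights (105 higher, 135 lower), 0 with only the arrays compared (1266 at an unadjusted p under 0.05) and 10 by the design-text rule. With IR the count of 0 became 2 after quantile normalization, 1 with array weights and 17 by the design-text rule, and the interactions gave 18 (fraction) and 4 (IR) by that rule. Leaving out 1 array gave 1 to 7 calls in total RNA, 1 to 6 in polysome RNA, 0 to 1 with IR, 0 to 0 for the fraction interaction and 0 to 1 for the IR interaction. Of 123 named genes 112 kept their sign in every alternative run. Signs turned for EEF1D (0.0243) and EIF2S3 (0.0429) after quantile normalization; with array weights for EIF2S3 (0.027), FASN (0.0165), IRS2 (0.0764) and KLHL24 (-0.0119); without replicate 2 of both groups for FASN (0.1164), IRS2 (0.0871) and KLHL24 (-0.0843). With single arrays left out, values spanned 0 for 10 genes: -0.2883 to 0.1112 for EIF2S3, -1.683 to 0.8208 for FASN, -0.5613 to 0.4335 for IRS2, -0.2954 to 0.3776 for KLHL24, -0.9219 to 0.6725 for MCM5, -0.0865 to 0.193 for INSR, -0.1436 to 0.1206 for MRTO4, -0.0369 to 0.8198 for H2AC6, -1.0395 to 0.0332 for H2AC13 and -0.0091 to 0.3461 for SAMD9L. The causes were not tested. Of 388 list medians under alternatives, 387 moved by less than the spread between replicates, a spread wide enough to include changes of sign.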

Other observations

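Several genes with large differences belong to no list above and were chosen after their values were seen; none passed the adjusted threshold in limma. HAS2, which makes hyaluronan, was at 14.71, 13.10 and 15.34 with PP242, at 11.02, 11.95 and 13.92 with RAD001 and at 12.05, 11.59 and 11.41 with DMSO, a difference between inhibitors of 2.09 ± 0.73 with pair values of 3.69, 1.16 and 1.42. CCDC71L was at 1.72 ± 0.72. TNFRSF12A, the receptor for the cytokine TWEAK, was at 15.37, 13.90 and 13.63 with PP242 and at 13.58, 12.45 and 12.54 with RAD001, with no overlap and a difference of 1.45 ± 0.51. On the lower side, ARRDC3, an arrestin-like adaptor, was at -1.496 ± 0.78 and GABARAP, an autophagosome protein, at -0.61 ± 0.19. STC1, a secreted glycoprotein, was at -1.10 ± 0.53, and its pair values of -1.03, -1.13 and -1.16 were much closer to each other than the arrays within a group, which ran from 11.20 to 12.95 with PP242 and from 12.33 to 14.11 with RAD001.

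Small nucleolar RNAs, which guide the modification of ribosomal RNA, were grouped by their annotated type after their values were seen. RAD001 replicate 1 stood apart: its median over 234 of these genes was 5.65, against 4.70 and 4.71 on the other RAD001 arrays and 4.67 to 4.77 with PP242. The median difference was -0.91 in pair 1, -0.01 in pair 2 and -0.00 in pair 3. In polysome RNA it was 0.06, and in total RNA with IR, on other arrays, it was -0.23 with 177 of 234 genes below 0. SNORD99 was at 10.56, 9.81 and 10.70 with PP242 and at 15.04, 11.75 and 12.18 with RAD001. Its difference was -2.63 ± 0.78 (adjusted p = 0.744).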
